A study of Arabidopsis thaliana with 24 samples.

Results

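The genes described here lost at least 2 log2 units of expression when aluminum was added to stop1 root tips, while wild-type root tips under the same treatment kept their level within a fall of 0.3. They were chosen from measured values, as the mean over 2 libraries of log2(CPM + 1), where CPM is the read count per gene scaled to a common library size, as deposited. The stop1 change between the aluminum medium (Al) and the same medium without aluminum (-Pi_pH5) had to be -2 or lower, and the wild-type change between the same media -0.3 or higher. Genes lower in stop1 than in wild-type by 0.5 or more in all 6 media were dropped. Of 20450 genes in the table, 330 met the stop1 limit, 47 of these also met the wild-type limit, and the last step removed 3 (ABCB15, AT4G25090 and AT4G30670). The remaining 44 genes are the subject of this section. The reverse pattern, a wild-type fall of 2 or more with a stop1 change of -0.3 or higher, was found for 0 genes. No more than 10 genes had such a wild-type fall at all, so few could have shown it.

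Root tips of Arabidopsis thaliana Col-0 wild-type and of the stop1 mutant, a T-DNA insertion line (SALK_114108) in the same background, were sequenced as 24 poly(A) libraries, 2 for each of 12 conditions. Seedlings were 5 days past germination and spent 16 h in liquid medium, and each library pooled many seedlings, so spread between seedlings was not measured. The media were +Pi_pH6 (1 mM phosphate, pH 6), -Pi_pH6 (0 mM phosphate, pH 6), +Pi_pH5 (1 mM phosphate, pH 5), -Pi_pH5 (0 mM phosphate, pH 5), Al (0 mM phosphate, pH 5, AlCl3) and Fe (0.1 mM phosphate, pH 5, with 0.1 mM FeSO4 added). The labels give 100 µM AlCl3, and the study's methods give another concentration. The mutant is represented by a single allele, and the whole section was ground, so fewer cells of a type and less RNA per cell cannot be told apart in any value below.

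STOP1 is a zinc finger transcription factor that accumulates in the nucleus under acidic and aluminum stress and activates tolerance genes, among them ALMT1, which encodes a malate channel whose product chelates aluminum outside the root. Nitrate enters root cells through transporters such as NRT1.1, is reduced to nitrite in the cytosol by nitrate reductase and to ammonium in plastids by nitrite reductase. The ammonium is built into amino acids on carbon skeletons, which phosphoenolpyruvate carboxylase helps to replenish. Nitrate itself induces most of these genes in the root.

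The mutated gene and its best known target went with the labels. STOP1 stood at 108 to 177 CPM in the 12 wild-type libraries and at 28.8 to 57.8 CPM in the 12 stop1 libraries. ALMT1 stood at 243 and 187 CPM in the wild-type Al libraries and at no more than 0.275 CPM in any stop1 library. Libraries held 17027929 to 30516150 reads on genes, and 1 read was worth 0.0326 to 0.0572 CPM. Marker lists of root tissues were detected in every library, with at most 1 endodermis gene at 0. Markers of photosynthetic cells, which a root tip should lack, summed to a median of 46.1 CPM. The 2 highest libraries were wild-type +Pi_pH5 replicate 2 at 876 CPM and wild-type Al replicate 1 at 303 CPM. Next came stop1 +Pi_pH6 replicate 1 at 280 CPM and stop1 +Pi_pH5 replicate 1 at 190 CPM.

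The 2 wild-type Al libraries stood apart from each other, which bears on the choice of the genes. Hair cell markers summed to 1428 CPM in replicate 1 and 685 CPM in replicate 2, against 1336 and 1554 CPM in wild-type -Pi_pH5. The 2 cortex markers summed to 23.0 and 9.40 CPM in the same 2 Al libraries. Without wild-type Al replicate 1 the rule gave 40 genes, of which 30 were among the 44, and without replicate 2 it gave 134 genes, of which 41 were among the 44. Of the 44 genes, 41 met the wild-type limit in replicate 1 alone, 30 in replicate 2 alone and 27 in both. Among all 20450 genes, 84.7% met it in replicate 1 alone, 81.9% in replicate 2 alone and 15093 genes in both. The part of tissue makeup in the difference between the 2 libraries was not tested.

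In stop1, both Al libraries were below the 22 other libraries for 43 of the 44 genes, a pattern that 11.4% of all genes showed and that the rule favours. The exception was ARD3, an acireductone dioxygenase of methionine salvage. ARD3 stood at 17.1 and 12.4 CPM in stop1 -Pi_pH5 and at 1.47 and 2.77 CPM in stop1 Al. In wild-type it stood at 2.63 and 2.67 CPM in -Pi_pH5 and at 1.45 and 3.37 CPM in Al. Its wild-type level was thus too low for a fall of 2 on the log2(CPM + 1) scale. On that scale its stop1 level minus its wild-type level was 2.09 in -Pi_pH5 and -0.10 in Al. The median change of the 44 genes under aluminum was -2.49 in stop1 and 0.02 in wild-type, and over all genes it was 0.00 and -0.02. These values chose the genes and are given as a description. A fall of 2 or more was found for 1.61% of all genes in stop1 and 0.0489% in wild-type.

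**Figure D1:**
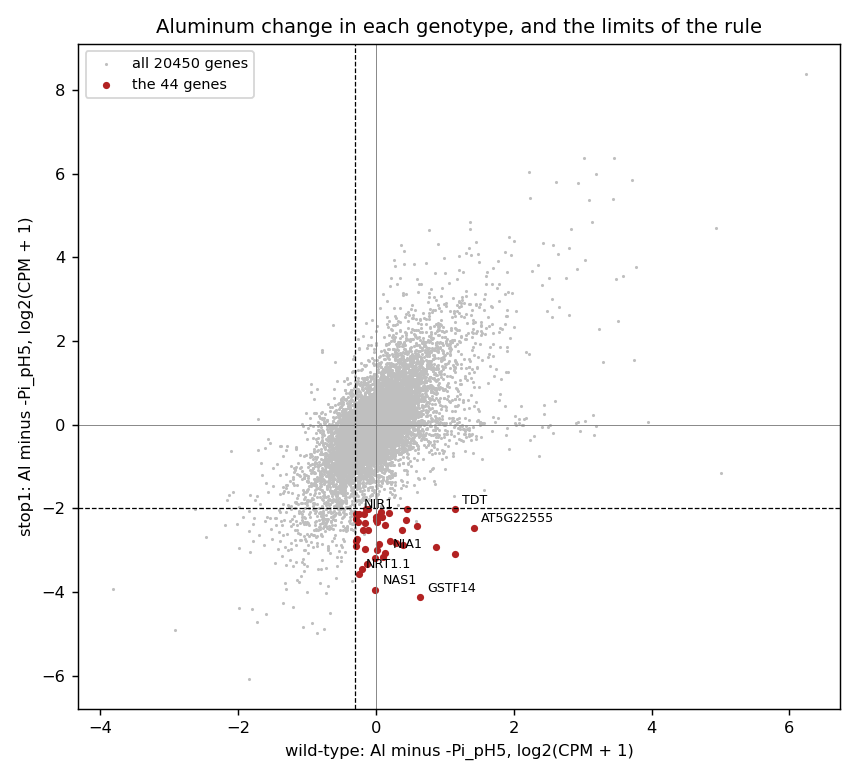
Change under aluminum (Al minus -Pi_pH5, log2(CPM + 1), means of 2 libraries) in wild-type on the horizontal axis and in stop1 on the vertical axis, for all 20450 genes (grey) and the 44 genes (red). Dashed lines mark the limits of -0.3 and -2, and red points fill the lower right corner, from GLR2.1 at -2.01 to GSTF14 at -4.13 in stop1.

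The genes at the limits differed little from those left out. SBP3 (-2.02) and GLR2.1 (-2.01) were the last to meet the stop1 limit, and AT4G22610 (-1.98) and PYL5 (-1.94) were the first to miss it. AT5G04960 (-0.29) and AT5G04730 (-0.29) were the last to meet the wild-type limit, and CYCP4;1 (-0.30) and FAH1 (-0.30) the first to miss it. Of the 330 genes with the stop1 fall, 283 fell below the wild-type limit.

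Genes of nitrate uptake and assimilation formed the group with the highest levels. NRT1.1 (AT1G12110, chromosome 1, 4105223 to 4109601), the dual-affinity nitrate transporter and sensor of the plasma membrane, stood at 1415 and 1197 CPM in stop1 -Pi_pH5 and at 125 and 96.3 CPM in stop1 Al, 11.8-fold lower. In wild-type it stood at 1568 and 1305 CPM in -Pi_pH5 and at 1287 and 1124 CPM in Al. Both wild-type Al values lay below both controls, a fall of 0.25 on the log2 scale that was close to the wild-type limit. In the other media at pH 5, NRT1.1 differed between stop1 and wild-type by -0.14 on the log2 scale in -Pi_pH5 and by -0.93 in Fe. In +Pi_pH5 it stood at 1410 and 1391 CPM in stop1 and at 1256 and 1272 CPM in wild-type.

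NIA1 (AT1G77760, chromosome 1, 29235721 to 29239484) encodes a nitrate reductase, the enzyme that makes nitrite. NIA1 stood at 535 and 683 CPM in stop1 -Pi_pH5 and at 91.0 and 55.3 CPM in stop1 Al, 8.32-fold lower. Wild-type NIA1 stood at 614 and 762 CPM without and at 704 and 800 CPM with aluminum, and those 4 values overlapped. NIR1 (AT2G15620, chromosome 2, 6810395 to 6812941), the nitrite reductase of plastids, stood at 1042 and 935 CPM in stop1 -Pi_pH5 and at 252 and 199 CPM in stop1 Al, 4.38-fold lower. In wild-type NIR1 stood at 982 and 976 CPM without and at 907 and 712 CPM with aluminum, again below both controls but by a change of -0.28. HRS1 (AT1G13300), a GARP transcriptional repressor that is induced by nitrate, stood at 124 and 135 CPM in stop1 -Pi_pH5 and at 32.2 and 25.7 CPM in stop1 Al. In wild-type HRS1 ran from 66.9 to 86.8 CPM in those 4 libraries, with no gap between the media.

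**Figure D2:**
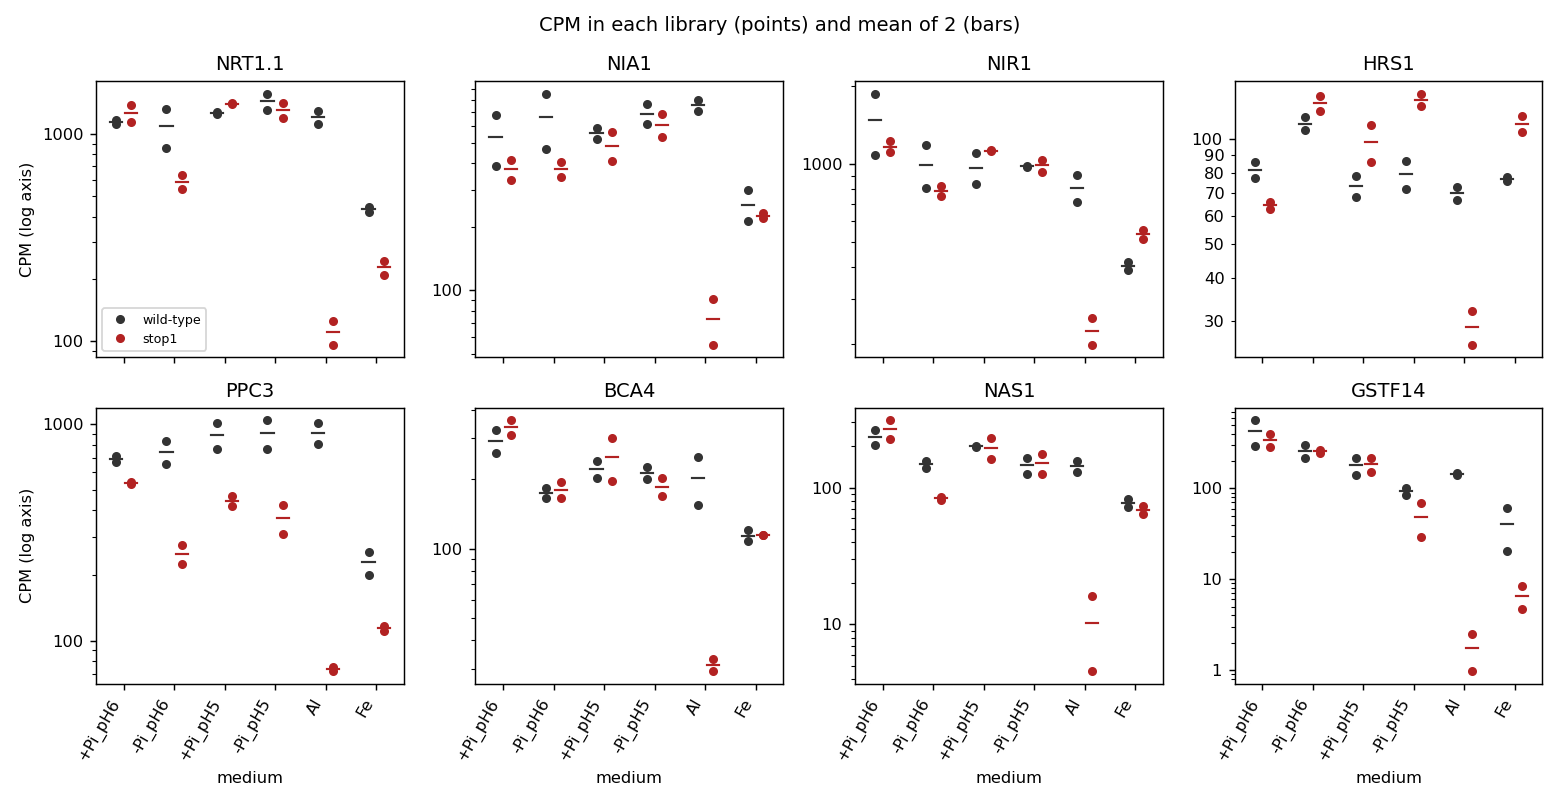
CPM on a log axis of 8 of the genes in each library (points) and the mean of 2 (bars), by medium, in wild-type (black) and stop1 (red). In each panel the 2 stop1 Al points lie below the 22 other points, from 252 and 199 CPM for NIR1 to 2.48 and 0.971 CPM for GSTF14.

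The list of nitrate transport and assimilation genes held 9 genes, of which 8 were in the table and 3 were among the 44. Its median change under aluminum was -1.81 in stop1 and -0.27 in wild-type. NRT2:1, a high-affinity nitrate transporter, changed by -3.27 in stop1 but by -0.51 in wild-type and so missed the wild-type limit. WR3, the partner protein of NRT2 transporters also known as NRT3.1, changed by -1.48 and -0.30. NIA2, the second nitrate reductase gene, changed by -0.52 in stop1 and -0.41 in wild-type. NRT1.5 and NRT1.8, which load nitrate into and remove it from the xylem, changed by -0.40 and 0.05 in stop1. NIA1 and NIA2 had means of 609 and 929 CPM in stop1 -Pi_pH5 and of 73.2 and 646 CPM in stop1 Al.

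A nitrate-responsive element, to which NLP transcription factors bind, is known from the NIR1 promoter, and its sequence is shown because it is a known site of nitrate control in 1 of the 44 genes. The letters GACNCTT, 10 free bases and AAG were searched as a single motif on both strands from 1000 bases before to 200 bases after the annotated start of each gene in the TAIR10.1 genome. The window was extended past the start after the NIR1 site had been seen there, so the NIR1 hit was fixed in advance. The element was found for 1 of the 44 genes (NIR1) and for 0.558% of 20413 genes searched. In NIR1 it begins at base 65 counted from the annotated gene start, so by this annotation it lies inside the gene. The letters fixed by the motif are in capitals.
NIR1, chr2:6810454-6810483, plus strand: aacttGACcCTTtacattgctcAAGagctc

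Genes of carbon metabolism and malate transport included PPC3, BCA4 and TDT, the last named after its values were seen. A link of these genes to nitrogen assimilation in these roots was not tested. PPC3 (AT3G14940, chromosome 3, 5025184 to 5029886), a phosphoenolpyruvate carboxylase that makes oxaloacetate, stood at 424 and 312 CPM in stop1 -Pi_pH5 and at 72.1 and 75.4 CPM in stop1 Al. Wild-type PPC3 stood at 1048 and 769 CPM without and at 1017 and 815 CPM with aluminum, and these overlapped. BCA4 (AT1G70410), a carbonic anhydrase that supplies bicarbonate, stood at 203 and 168 CPM in stop1 -Pi_pH5 and at 33.3 and 29.4 CPM in stop1 Al. BCA4 was at 249 and 155 CPM in wild-type Al and at 225 and 200 CPM in its control. TDT (AT5G47560), the tonoplast carrier of malate, went opposite ways, from 17.4 and 15.4 to 4.22 and 2.52 CPM in stop1 and from 25.7 and 35.6 to 56.0 and 82.9 CPM in wild-type.

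On the log2(CPM + 1) scale the largest stop1 change was that of GSTF14 (AT1G49860, chromosome 1, 18458526 to 18459969), a phi class glutathione transferase. GSTF14 stood at 68.3 and 29.2 CPM in stop1 -Pi_pH5 and at 2.48 and 0.971 CPM in stop1 Al, 28.3-fold lower. In wild-type it stood at 85.7 and 100.1 CPM without and at 148 and 141 CPM with aluminum, so the 2 genotypes moved apart. NAS1 (AT5G04950, chromosome 5, 1457641 to 1459039), which makes the metal chelator nicotianamine, stood at 176 and 126 CPM in stop1 -Pi_pH5 and at 16.0 and 4.56 CPM in stop1 Al, 14.7-fold lower. Wild-type NAS1 stood at 165 and 126 CPM in -Pi_pH5 and at 157 and 130 CPM in Al. NAS1 and its neighbour AT5G04960, a pectin methylesterase inhibitor family gene, were 1 of 2 pairs of neighbouring genes among the 44.

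The other genes with a large stop1 change have varied products. ATL15 (AT1G22500), a RING finger protein of the ubiquitin ligase type, stood at 65.2 and 69.3 CPM in stop1 -Pi_pH5 and at 6.33 and 4.27 CPM in stop1 Al. AT3G20380, a TRAF-like family gene, changed by -2.92 in stop1 and by 0.88 in wild-type, where both Al libraries (128 and 169 CPM) were above both controls (76.4 and 82.9 CPM). AT5G52790, a CBS domain gene, changed by -3.09 and 1.15. AT1G09750, an aspartyl protease gene that is also 1 of the 2 cortex markers, changed by -3.19 in stop1 and by -0.01 in wild-type, but its wild-type Al libraries were at 14.1 and 3.46 CPM. AT5G04120, a phosphoglycerate mutase family gene, and AT3G32040, a terpenoid synthase family gene, changed by -2.99 and -2.98 in stop1.

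Protein kinases, most of them with leucine-rich repeats and grouped by their product names after their values were seen, made up 4 of the 44 genes. AT1G05700, a transmembrane kinase, stood at 66.8 and 36.3 CPM in stop1 -Pi_pH5 and at 7.48 and 2.72 CPM in stop1 Al. AT5G49770 changed by -2.87, AT1G07560 by -2.39 and AT1G51870 by -2.27 in stop1, and their wild-type changes ran from 0.00 to 0.40. AT5G41280 and AT5G41290, receptor-like kinase related genes that lie next to each other on chromosome 5, changed by -3.32 and -2.08 in stop1. Of the 50-base words in their exons, 4.40% and 4.51% occur elsewhere in the genome, so the 2 genes may share reads. The wild-type level of AT5G41290 was already low in -Pi_pH5, with a mean of 2.02 CPM. A wild-type fall of 2 on the log2(CPM + 1) scale was therefore not possible for AT5G41290. On that scale its stop1 level minus its wild-type level was 1.55 in -Pi_pH5 and -0.601 in Al.

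Class III peroxidases, which act on phenolics in the cell wall, had 58 genes in the table, of which 9 fell by 2 or more in stop1 and 3 were among the 44. AT4G30170 stood at 509 and 499 CPM in stop1 -Pi_pH5 and at 112 and 105 CPM in stop1 Al, and at 566 and 432 CPM in wild-type Al. AT4G11290 changed by -2.26 and AT5G24070 by -2.82 in stop1. The family as a whole had a median stop1 change of -0.03. Aquaporins had 32 genes in the table, 8 with a stop1 fall of 2 or more and 1 among the 44, PIP2E (AT2G39010), which stood at 5.46 and 4.99 CPM in stop1 -Pi_pH5 and at 0.275 and 0.291 CPM in stop1 Al. Lipid transfer proteins had 56 genes, 9 with such a fall and 1 among the 44, AT4G22460.

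Genes of signalling and transcription, named after their values were seen, completed the set. PYL6, an abscisic acid receptor, stood at 35.4 and 18.4 CPM in stop1 -Pi_pH5 and at 3.35 and 2.43 CPM in stop1 Al, and at 36.1 and 38.0 CPM in wild-type Al. RALFL27, a secreted peptide of the RALF family, and WRKY38, a transcription factor, changed by -2.32 and -2.43 in stop1. The genes not yet placed in a group were PP2-A6, a phloem protein, AT5G38940, of the cupin family, AT3G45700, a major facilitator transporter, AT1G06120, of the fatty acid desaturases, AT1G29020, of the EF-hand proteins, AT3G20850, AT1G27020, AT1G44050 and AT5G22555. Their stop1 changes ran from -2.85 for PP2-A6 to -2.02 for AT1G29020. AT5G22555 was also too low in wild-type -Pi_pH5 for a fall of 2, with a mean of 2.82 CPM. Its wild-type mean in Al was 9.93 CPM. The genes with the fewest reads in stop1 Al were AT5G04730, with 4 and 1 reads, and AT1G19960, with 3 and 2 reads. AT1G19960 was at least 38.3-fold lower in stop1 Al than in its control when 3 reads in each Al library are taken as the floor.

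The wild-type changes under aluminum were limited from below by the rule, so the counts that follow describe the chosen genes and nothing is read from them. Both wild-type Al libraries were above both controls for 9 genes, against 18.6% of all genes, and below both for 5 genes, against 23.4%. The 5 were NRT1.1, ATL15, AT5G38940, NIR1 and SBP3. A wild-type change of 1 or more was found for 3 genes (AT5G22555, AT5G52790 and TDT), against 1.96% of all genes. The stop1 and wild-type levels already differed without aluminum for part of the set. In -Pi_pH5, 10 genes were lower in stop1 by 0.5 or more (3.34% of all genes) and 10 were higher (3.51%). In +Pi_pH6, 7 were lower (2.34%) and 1 was higher (2.86%), and in -Pi_pH6, 12 were lower (5.07%) and 7 were higher (4.71%). In +Pi_pH5, 9 were lower (3.91%) and 4 were higher (2.7%). In Al, 43 were lower (11.4%) and 0 were higher (11.9%), and in Fe, 20 were lower (4.18%) and 4 were higher (3.18%). The last step of the rule used these genotype differences, so they are given without a test.

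**Figure D3:**
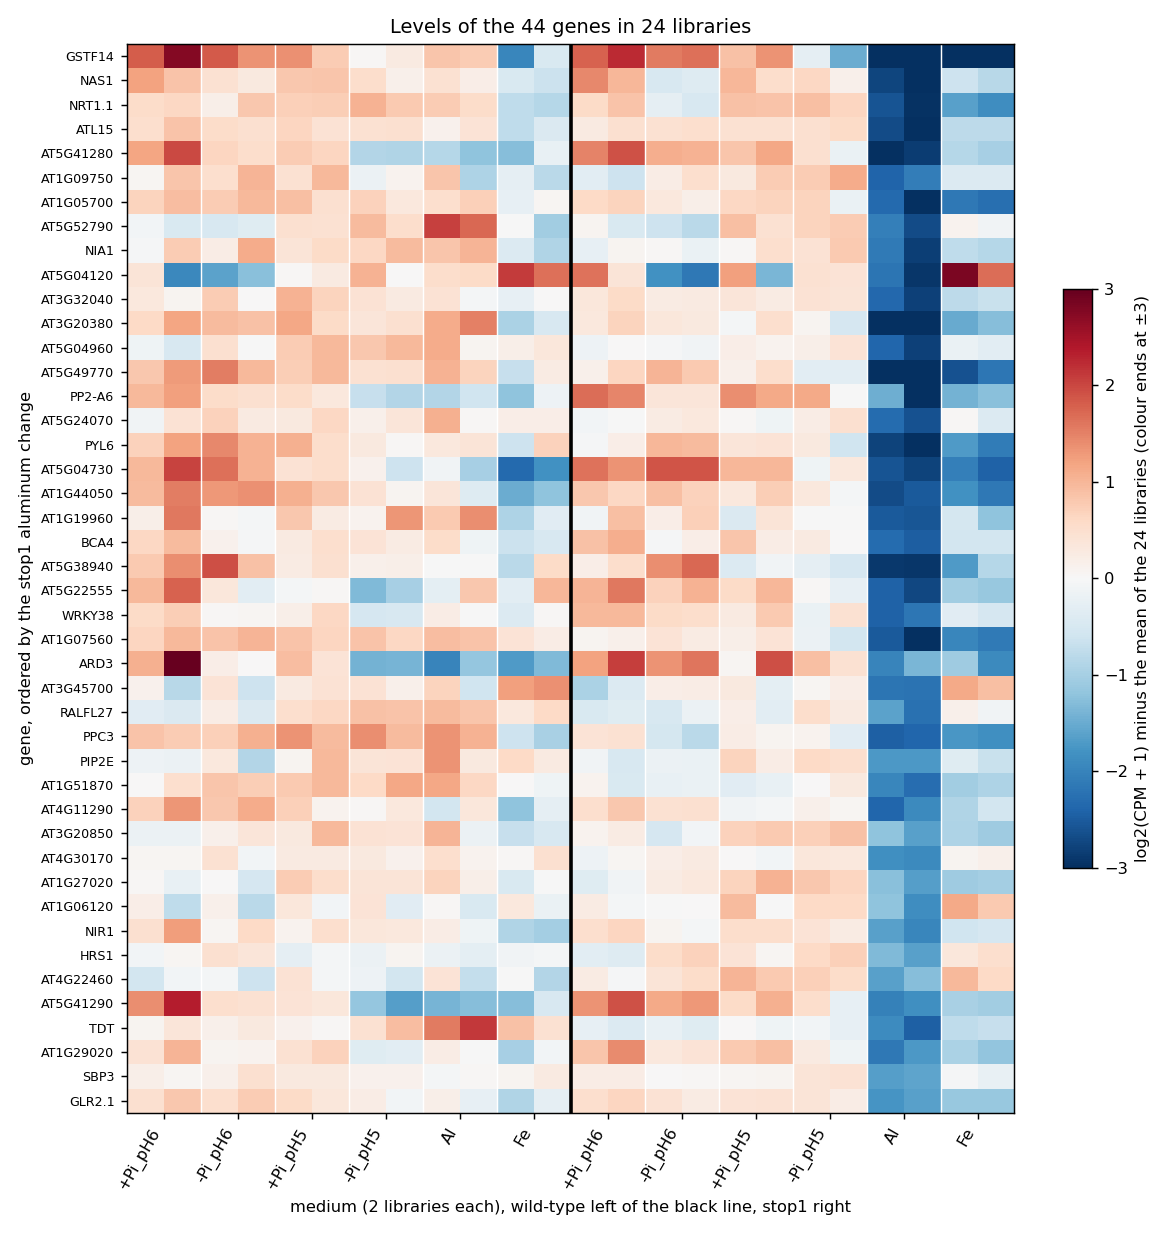
Level of each of the 44 genes (rows, ordered by stop1 change) in each of the 24 libraries (columns), as log2(CPM + 1) minus the mean of the gene over all libraries, with colours ending at ±3. The 2 stop1 Al columns are blue in all rows, while wild-type Al is mixed, and the Fe columns of both genotypes are blue in many rows.

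Markers of some tissues moved with the aluminum medium in stop1. Hair cell markers (8 genes) summed to 1299 and 1499 CPM in stop1 -Pi_pH5 and to 353 and 304 CPM in stop1 Al, and 4 of the 8 fell by 2 or more. Root cap markers (4 genes) summed to 35.5 and 41.5 CPM without and to 15.3 and 16.5 CPM with aluminum. The 2 cortex markers, of which AT1G09750 is among the 44, summed to 24.8 and 35.3 CPM and to 5.92 and 6.31 CPM. Quiescent centre and stem cell markers (6 genes) summed to 80.0 and 79.6 CPM without and to 126 and 127 CPM with aluminum. The rise was uneven, with a median stop1 change of 0.29 over these genes. Much of the sum came from AIL6, which went from a mean of 41.3 to 75.8 CPM in stop1. PLT1 was the only one of them to fall, by a change of -0.08. Mitotic genes had a median stop1 change of 0.18. In the same stop1 libraries, non-hair epidermis markers went from 35.2 and 39.1 to 21.1 and 27.0 CPM. Endodermis markers went from 404 and 436 to 311 and 273 CPM, and stele markers from 621 and 689 to 438 and 490 CPM. Phloem markers rose from 84.0 and 67.3 to 147 and 115 CPM. Xylem markers stood at 266 and 284 CPM without and at 266 and 267 CPM with aluminum. No hair cell, root cap, cortex, quiescent centre or stem cell marker was at 0 in any library. The part of tissue makeup in the fall of the 44 genes was not tested. The list of iron uptake and coumarin genes held none of the 44, although 6 of its 16 genes fell by 2 or more in stop1. Those 6 genes changed by -0.36 to -1.84 in wild-type, below the limit.

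The response to iron excess within each genotype was tested because the rule set no limit on it. Its libraries entered only the last step of the rule, through the genotype difference, and that step removed 3 genes. Fe was compared with +Pi_pH5 in each genotype with limma, and p-values were adjusted over all 20450 genes with the Benjamini-Hochberg method. No filter on low values was applied, so all 44 genes were tested. The media also differ in phosphate (0.1 and 1 mM), so iron and the lower phosphate cannot be told apart. Among the 44 genes, 24 were lower in wild-type Fe (8.31% of all genes) and 0 were higher (10.6%). In stop1 Fe, 28 were lower (6.93%) and 1 was higher (10.6%). Their median change was -0.98 in wild-type and -1.08 in stop1, while all genes had medians of -0.01 and -0.02. Of the 283 genes with the stop1 fall that missed the wild-type limit, 92 (32.5%) were lower in wild-type Fe and 69 (24.4%) in stop1 Fe. A gene chosen for a fall in stop1 must have been expressed there. Among genes with a level of 2 or more on the log2(CPM + 1) scale in stop1 -Pi_pH5, 9.22% and 7.47% were lower in Fe in wild-type and stop1.

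**Figure D4:**
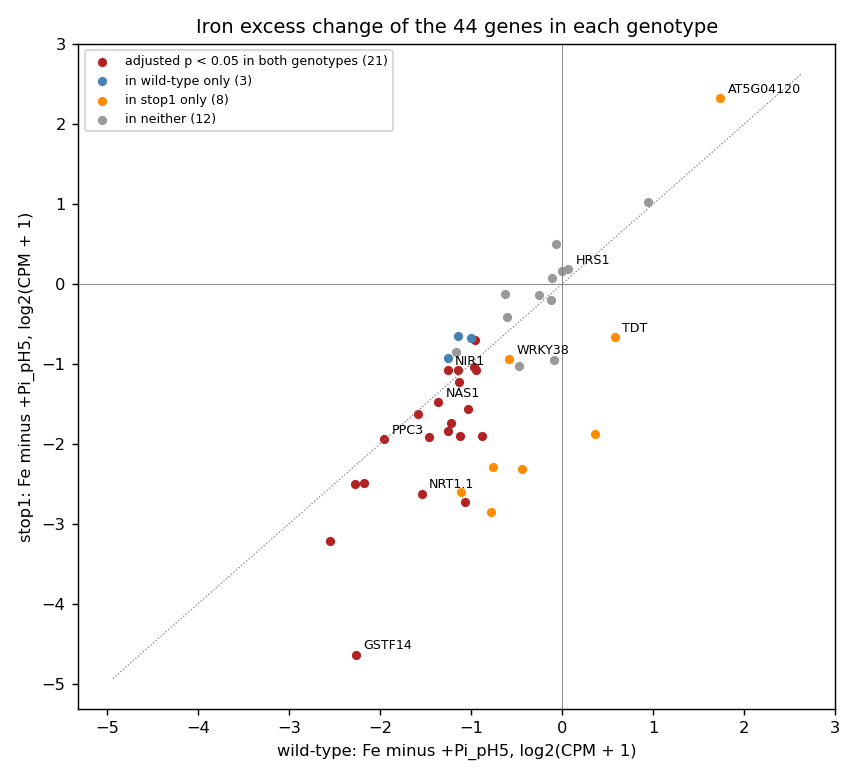
Change in iron excess (Fe minus +Pi_pH5, log2(CPM + 1)) of the 44 genes in wild-type (horizontal) and stop1 (vertical), coloured by the genotype in which the limma adjusted p was under 0.05. In both genotypes 21 genes passed, all of them lower, while 842 of all 20450 genes were lower in both. Most points lie on or under the dotted line of equal change, with GSTF14 lowest in stop1 at -4.64.

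The nitrate genes were among those that fell in iron excess in both genotypes. NRT1.1 stood at 447 and 420 CPM in wild-type Fe against 1256 and 1272 CPM in +Pi_pH5, a change of -1.54 ± 0.19 (SE, limma adjusted p = 2.38e-05). In stop1 NRT1.1 stood at 245 and 210 CPM against 1410 and 1391 CPM, a change of -2.62 ± 0.19 (limma adjusted p = 9.65e-08). NIR1 fell to 417 and 387 CPM in wild-type Fe from 838 and 1101 CPM, and to 514 and 554 CPM in stop1 Fe from 1121 and 1132 CPM (limma adjusted p = 0.000817 and 0.00279). NIA1 fell to 298 and 212 CPM from 522 and 589 CPM in wild-type and to 232 and 220 CPM from 408 and 561 CPM in stop1 (limma adjusted p = 0.0139 and 0.0187). The NIA1 calls were the least secure of the 3, since leaving out wild-type +Pi_pH5 replicate 1 gave an adjusted p of 0.0516 and leaving out stop1 +Pi_pH5 replicate 2 gave 0.182. HRS1 did not pass in iron excess, with 75.6 and 78.1 CPM in wild-type Fe and 104 and 116 CPM in stop1 Fe. In the nitrate list as a whole, 5 of 8 genes were lower in wild-type Fe and 6 of 8 in stop1 Fe, and none was higher.

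PPC3 fell in both genotypes, by amounts that differed by 0.01. It fell to 258 and 202 CPM from 1020 and 773 CPM in wild-type, by 1.96 ± 0.19 on the log2 scale (SE, limma adjusted p = 3.06e-06). It fell to 117 and 111 CPM from 465 and 419 CPM in stop1, by 1.94 ± 0.19 (limma adjusted p = 3.67e-06). BCA4 was lower in both genotypes as well, by 0.95 and 1.08. GSTF14 fell from 218 and 141 CPM to 20.7 and 60.7 CPM in wild-type Fe, and from 153 and 215 CPM to 4.66 and 8.46 CPM in stop1 Fe (limma adjusted p = 0.00236 and 3.36e-06). NAS1 fell to 82.9 and 71.8 CPM in wild-type Fe and to 73.5 and 63.7 CPM in stop1 Fe, from 163 to 229 CPM in the 4 controls.

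AT1G44050, a C1 domain gene, and AT5G04730, an ankyrin repeat gene, were among the genes with the smallest p in wild-type. AT1G44050 stood at 3.75 and 4.74 CPM in wild-type Fe against 26.6 and 22.3 CPM (limma adjusted p = 6.07e-06). AT5G04730 stood at 0.417 and 1.04 CPM against 8.63 and 9.27 CPM (limma adjusted p = 6.21e-05). Both genes were also lower in stop1 Fe, by 2.50 and 3.22.

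The 4 protein kinases had a lower change in stop1 Fe than in wild-type Fe for 3 genes. AT1G07560 stood at 2.87 and 2.47 CPM in stop1 Fe against 15.8 and 18.9 CPM in its control (change -2.32 ± 0.17, SE, limma adjusted p = 1.58e-07), and its wild-type change was -0.45 ± 0.17 (limma adjusted p = 0.0823). AT1G05700 changed by -2.85 in stop1 and -0.78 in wild-type, and AT5G49770 by -2.73 and -1.07. AT1G51870 was the exception, with -0.71 and -0.95. Over the 44 genes, 10 had a stop1 change in Fe lower than the wild-type change by 1 or more and 0 had one higher by 1 or more, against 0.787% and 0.548% of all genes. The median difference was -0.13. The last step of the rule had used the genotype difference in Fe, so this difference was not tested.

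Genes of the set that did not pass in either genotype included the peroxidases AT4G30170 and AT5G24070, RALFL27 and SBP3. AT4G30170 stood at 413 and 555 CPM in wild-type Fe and at 426 and 445 CPM in stop1 Fe, against 376 to 480 CPM in the 4 controls. The single gene that was higher in Fe, AT5G04120, stood at 86.5 and 38.6 CPM in stop1 Fe against 27.9 and 3.78 CPM in its control (limma adjusted p = 0.0324). Its adjusted p was 0.0717 with the edgeR quasi-likelihood test, and 0.430 in limma without stop1 +Pi_pH5 replicate 2. For the wild-type count of 0 higher, the unadjusted limma p was under 0.05 for 3 genes, and edgeR's likelihood ratio test and DESeq2 each called 1. The matching shares of all genes are not given, so nothing is read from these counts.

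The counts of genes lower in Fe fell in both genotypes when any library of the contrast was left out, which leaves 1 library in a group. The shares of all genes called in those fits are not given, so nothing is read from the smaller counts. Wild-type +Pi_pH5 replicate 2, a control of this contrast, had the highest sum of photosynthetic markers. Hair cell markers summed to 960 and 952 CPM in wild-type Fe against 1356 and 1960 CPM in +Pi_pH5, and to 732 and 874 CPM in stop1 Fe against 1346 and 1212 CPM, and their part in the counts was not tested.

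Low phosphate at pH 6 (-Pi_pH6 against +Pi_pH6) moved few of the genes. In wild-type 0 were lower and 0 higher by limma (0.0244% and 0.142% of all genes), with an unadjusted p under 0.05 for 8 and 3. The likelihood ratio test of edgeR called 2 lower and DESeq2 called 1 lower in wild-type, and neither called any higher. For the unadjusted limit and these tests the shares of all genes are not given, so nothing is read from these counts. In stop1 4 were lower (0.523% of all genes) and 1 was higher (0.474%). The 4 were NRT1.1, NAS1, BCA4 and PPC3. NRT1.1 fell from 1139 and 1376 CPM to 635 and 542 CPM in stop1 (change -1.09 ± 0.19, SE, limma adjusted p = 0.0054), while wild-type stood at 1113 and 1169 CPM in +Pi_pH6 and at 856 and 1326 CPM in -Pi_pH6. PPC3 fell from 528 and 543 CPM to 277 and 225 CPM in stop1 (limma adjusted p = 0.0068). HRS1 was the gene that rose, from 66.1 and 63.0 CPM to 120 and 133 CPM (limma adjusted p = 0.00108), and in wild-type it stood at 77.5 and 85.9 CPM and at 115 and 106 CPM. Whether the genotypes differ in this response was not tested. An exchange of the +Pi_pH6 and +Pi_pH5 labels of stop1 was tried as an alternative, and whether they were exchanged was not tested. With the labels the other way round, 2 genes were lower, of which 1 was among the 4. Dropping 1 library at a time gave 0 (without stop1 +Pi_pH6 replicate 2 or stop1 -Pi_pH6 replicate 2), 1 (without stop1 +Pi_pH6 replicate 1) or 2 (without stop1 -Pi_pH6 replicate 1).

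Acidic pH with phosphate present (+Pi_pH5 against +Pi_pH6) gave no limma call among the 44 genes in either genotype, where 0.0244% of all genes were lower and 0.00489% higher in wild-type and 0.0685% lower and 0.00978% higher in stop1. The unadjusted p was under 0.05 for 7 lower and 7 higher in wild-type and for 4 lower and 5 higher in stop1. The edgeR likelihood ratio test called 1 lower and 2 higher in wild-type and 1 higher in stop1, and DESeq2 called 1 lower, 2 higher and 2 higher. The shares of all genes at the unadjusted limit and by these 2 tests are not given, so nothing is read from these counts. The median change of the 44 genes was -0.12 in wild-type and -0.08 in stop1. NIR1 stood at 838 to 1877 CPM in the 4 wild-type libraries of these media and at 1112 to 1227 CPM in those of stop1, far above its level of 199 to 252 CPM in stop1 Al.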

How the data were processed

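Processed values for 24 libraries were analysed as deposited. Per the labels and the study's methods, the authors trimmed reads with Trimmomatic, aligned them to TAIR10 with HISAT2, counted them with HTSeq and scaled them with edgeR. The deposited unit is a normalised signal, CPM with scaling factors. Whole reads were recovered for 100% of values within 0.001 of a read, and they gave 17027929 to 30516150 reads per library. The filter on low counts and the strand setting are not given in the sources used here, so genes that overlap another on the opposite strand (ATL15, AT1G09750, AT5G04120, AT3G20380, AT1G07560, AT4G22460 and GLR2.1) are uncertain.

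Values were taken as log2(CPM + 1), which understates changes of low genes. Contrasts used limma 3.58.1 with a mean-variance trend, 12 condition means and Benjamini-Hochberg adjustment over 20450 genes, with a call at an adjusted p under 0.05. The fits were tested on simulated data. edgeR 4.0.16 and DESeq2 1.42.0 on the recovered reads, a pseudocount of 0.1, a mean CPM filter of 1, library size alone, exchanged labels and left-out libraries were alternatives. With 2 libraries per group, described as biological replicates, p-values measure the spread between these pooled samples.

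Named genes were the 12 with the largest stop1 change, the 10 highest in stop1 -Pi_pH5, up to 4 per gene list or family, those at each limit and the 4 with the smallest iron p in each direction and genotype. Others are named as chosen after their values were seen. The genes and lists were chosen with earlier results of these data known. Names and positions come from RefSeq (TAIR10.1), which listed 20414 of the genes.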

Additional observations from a re-analysis of the deposited data

Results flagged for a closer look

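TDT, AT3G20850, PPC3 and SBP3 had libraries that moved in opposite directions in the genotypes in media other than Al and -Pi_pH5. The last step of the rule used the genotype difference in these media, and the differences were not tested. In iron excess TDT went from 20.3 and 18.9 to 34.7 and 25.5 CPM in wild-type and from 18.6 and 16.7 to 10.4 and 11.0 CPM in stop1, a difference in change of -1.24. In low phosphate at pH 6 AT3G20850, a proline-rich family gene, went from 2.80 and 2.80 to 3.81 and 4.53 CPM in wild-type and from 3.63 and 4.10 to 2.06 and 3.04 CPM in stop1, a difference of -0.91. In acidic pH with phosphate the difference was -0.64 for PPC3 and -0.33 for SBP3, a selenium-binding protein. PPC3 went from 716 and 670 to 1020 and 773 CPM in wild-type and from 528 and 543 to 465 and 419 CPM in stop1.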

How the results depend on the processing

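The number of genes meeting the rule was 116 with a pseudocount of 0.1, of which 43 were among the 44, 103 at a stop1 limit of -1.5 and 22 at -2.5. Dropping 1 library at a time gave 40 to 134. With the labels of stop1 +Pi_pH6 and +Pi_pH5 exchanged it was 41 and without the last step 47, both chosen after seeing the data. For iron excess, the number lower in wild-type was 15 to 21 with a library left out, and 16 when the fit held just the 4 libraries compared. The number higher in wild-type was 1 with the edgeR likelihood ratio test, DESeq2 and the replicate block, 2 with only the libraries compared and 3 with +Pi_pH6 as the control, an alternative chosen after seeing the data. The number higher in stop1 was 0 with both edgeR tests, 0 to 1 with a library left out, and 2 with the replicate block, with exchanged labels and with +Pi_pH6 as the control. HRS1 changed sign in wild-type iron excess, to -0.0862 with +Pi_pH6 as the control, and ran from -0.0280 (without wild-type +Pi_pH5 replicate 1) to 0.167 with a library left out. For low phosphate, the number lower in stop1 was 2 with exchanged labels and 0 to 2 with a library left out, and the number higher was 3 with only the libraries compared. In wild-type the number lower was 2 with the edgeR likelihood ratio test, 1 with DESeq2 and 0 to 2 with a library left out. For acidic pH, the number higher in wild-type was 2 with the likelihood ratio test and DESeq2, the number lower was 1 with both and 0 to 1 with a library left out, and the number higher in stop1 was 1 and 2. The causes of these shifts were not tested, except that fewer libraries were fitted where some were left out. Shares of all genes under these alternatives are not given.

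The replicate numbers are only numbers, since no label ties them to a shared batch. Deviations of libraries with the same number correlated at -0.108 to 0.341 over the 6 contrasts. Over all pairs of conditions the correlations ran from -0.379 to 0.524. With the replicate block, 25 genes were lower in wild-type Fe and 30 in stop1 Fe. Depth limits AT5G04730 and AT1G19960, with 5 or fewer reads in each stop1 Al library.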
